A study of Homo sapiens with 4 samples.

Results

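The Fanconi anemia and DNA crosslink repair genes are described here in BEAS-2B cells, a human bronchial epithelial line immortalized in culture, after exposure to formaldehyde. The members are 32 genes listed by name for their function, of 23004 gene names in the files, and all 32 were found. The rule used no measured value, but the members were chosen with earlier results of these data known. The formaldehyde group held 2 libraries of BEAS-2B cells exposed to 100 µM for 48 h, the compound being named by the series title, and the untreated group held 2 libraries of the same line. The labels give no genotype change in either group and do not say whether the replicates were separate cultures, so each p-value reflects only how far apart these 4 libraries lie, and that distance may be technical. Levels are in FPKM, a count of fragments scaled by transcript length and by mapped depth, which the authors deposited for each transcript and which was summed here for each gene.

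Formaldehyde is a small reactive aldehyde that can join the strands of DNA to each other and DNA to protein. In the Fanconi anemia pathway, a core complex of several FANC proteins acts as a ubiquitin ligase at a replication fork stalled by an interstrand crosslink. It ubiquitinates FANCD2 and FANCI, nucleases on the SLX4 scaffold then cut the DNA on either side of the lesion, translesion polymerases fill the gap opposite it, and homologous recombination restores the broken strand. ATR signals the stalled fork and a deubiquitinase resets FANCD2 and FANCI. In dividing cells many of these genes are transcribed most in S phase, so their messenger RNA is known to depend on how many cells are cycling. In bulk RNA, fewer cells of a kind and less RNA per cell cannot be told apart.

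Mapped depth, worked out from coverage and FPKM, came to 14.2 and 22.2 M fragments (M, mega) in the formaldehyde libraries, against 16.8 and 26.5 M in the untreated libraries. Pearson's r of log2(FPKM + 1) across the tested genes, which do not count as replicates, came to 0.91 for the formaldehyde pair and 0.90 for the untreated pair. Across the groups it ran from 0.88 to 0.92, a range that includes both. Among 7 epithelial markers, KRT8 was at 447 and 416 FPKM with formaldehyde, against 291 and 290.4 FPKM untreated. KRT18 was at 358 and 418 FPKM with formaldehyde, against 225.5 and 206 FPKM untreated. Neither keratin overlapped between the groups, and neither passed the test (limma adjusted p = 0.9999 for each, unadjusted p = 0.0547 for KRT8 and 0.0157 for KRT18). EPCAM was at 0.983 to 3.18 FPKM over the 4 libraries. KRT19 and CDH1 did not exceed 0.631 FPKM, and KRT5 and TP63 were listed at 0 in every library. Of other cell types, the leukocyte markers CD3E and TYROBP were listed at 0 throughout and PTPRC did not exceed 0.0232 FPKM. CD14 was at 1.77 and 6.23 FPKM with formaldehyde, against 3.75 and 11.98 FPKM untreated. CORO1A was at 4.75 and 4.02 FPKM with formaldehyde, against 1.53 and 2.69 FPKM untreated, without overlap (limma unadjusted p = 0.0329, adjusted p = 0.9999). LAPTM5 was at 2.35 and 0.309 FPKM with formaldehyde, against 0.292 and 0.130 FPKM untreated. The part of other cells in the values of the repair genes was not tested. The 4 endothelial markers summed to at most 0.192 FPKM. Among fibroblast markers COL1A1 was at 137 and 254 FPKM with formaldehyde, against 279 and 568 FPKM untreated, without overlap (limma unadjusted p = 0.0749, adjusted p = 0.9999). DCN, LUM, PDGFRA and COL3A1 stayed at or under 0.405 FPKM.

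No crosslink repair gene passed the test between formaldehyde and untreated cells. The 32 members had log2 fold changes from -0.40 for FANCD2 to 0.31 for FANCE. By this measure 21 were lower and 11 higher with formaldehyde. WDR48, counted as higher, had a slightly lower mean FPKM with formaldehyde (11.7 against 11.8 untreated). The median log2 fold change of the members was -0.09, beside 0.03 over the 12407 genes tested, of which 44.9% were lower. All 32 reached the filter of a mean of 1 FPKM. By limma on log2(FPKM + 1), with Benjamini-Hochberg adjustment over all 12407 genes and a threshold of 0.05, 0 members were higher and 0 lower, where 0.0806% of all genes passed as higher and 0.0725% as lower. At an unadjusted p under 0.05 the count of members was also 0, beside 2.76% of all genes, and the smallest adjusted p of a member was 0.9999. The 95% interval of the log2 fold change included 0 for all 32 members, with half-widths from 0.48 for FANCD2 to 0.82 for FANCL, so that the differences below are measured values that the test did not tell from 0. The formaldehyde values were under the lowest untreated value for 4 members (12.5%), FANCD2, FANCI, BRIP1 and FANCA, where 10.7% of all genes did so. They were over the highest untreated value for 1 member (3.12%), FANCE, where 16.2% of all genes did so. With 2 libraries against 2, an exact permutation test cannot give a two-sided p under 0.333. With an equal sum of FPKM in each library these counts were 5 members below and 1 above, beside 1811 and 1510 of 12402 genes. With scaling by median ratios they were 6 below and 1 above, beside 1668 and 1748 of 12405 genes. The median log2 fold change of the members turned to 0.08 when untreated replicate 1 was left out. Of the 32 members, 13 were then lower.

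**Figure D1:**
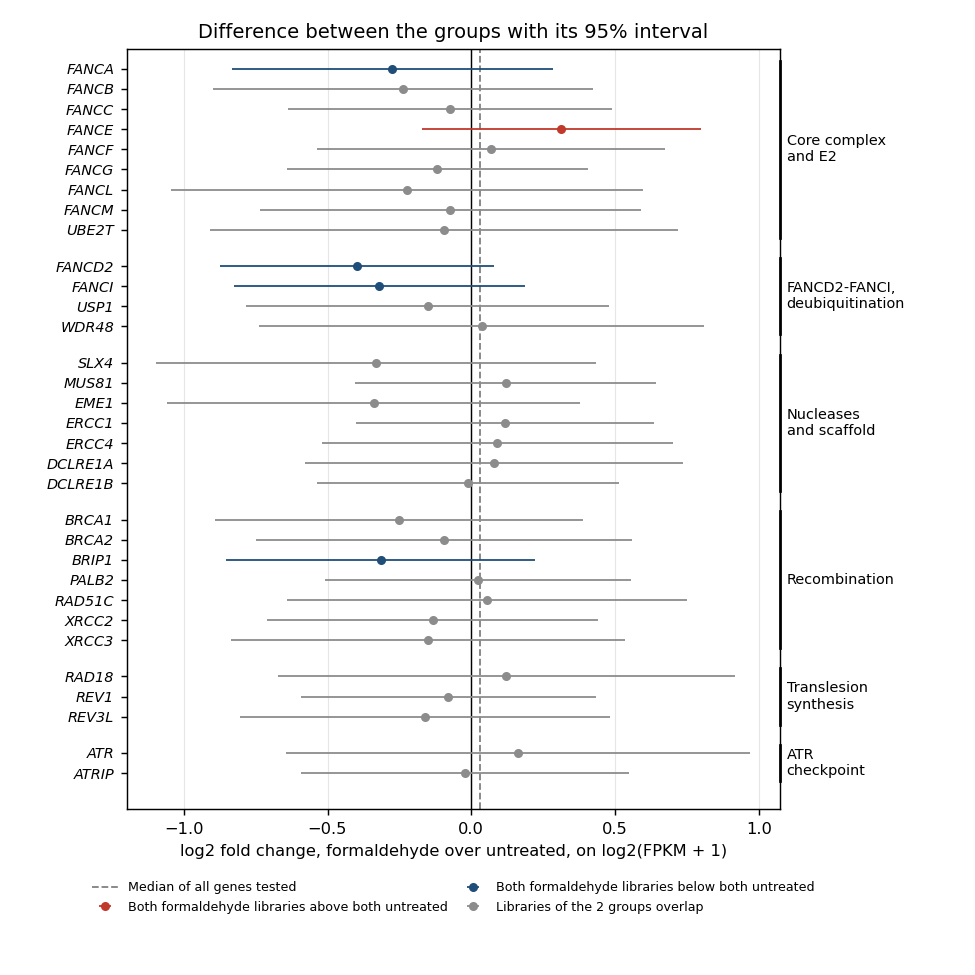
The log2 fold change of each member, formaldehyde over untreated on log2(FPKM + 1), with its 95% limma interval, grouped by repair step. Points are coloured by whether the 2 libraries of each group overlap, and the dashed line is the median of all genes tested (0.03). Every interval crosses 0, and FANCD2 (-0.40) and FANCE (0.31) are the lowest and the highest.

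The central target of the pathway, the FANCD2-FANCI pair, was lower in both formaldehyde libraries, by an amount larger than the distance between libraries of a group. Lying below without overlap was near as common among all genes (10.7%) as among the members (12.5%). FANCD2, the protein that carries the activating ubiquitin (chromosome 3, 10068113 to 10143614, plus strand, hg19 as in the files), stood at 10.8 and 11.1 FPKM in the formaldehyde libraries, against 14.98 and 14.4 FPKM in the untreated libraries. The groups did not overlap, and within each group the libraries were close together. The means were 10.9 ± 0.191 FPKM with formaldehyde and 14.7 ± 0.382 FPKM untreated (SD, n = 2 each), a difference of -25.7%. On the log2(FPKM + 1) scale the fold change was -0.40 ± 0.18 (SE), with a 95% interval of -0.87 to 0.08 (limma unadjusted p = 0.0848, adjusted p = 0.9999). Between 784 and 1951 fragments lay behind each value, a counting error of 4.53% to 7.14% at 95% that covers counting error only. Leaving out each library in turn kept the log2 fold change between -0.42 and -0.37. FANCI, its partner, which is ubiquitinated with it (chromosome 15, 89787194 to 89860362), stood at 27.0 and 30.7 FPKM in the formaldehyde libraries, against 37.7 and 34.8 FPKM in the untreated libraries. Here too the groups did not overlap, and in FPKM the gap between them was wider than the distance within either group. On the log2(FPKM + 1) scale that gap was slightly smaller than the distance between the formaldehyde libraries (0.18). Its log2 fold change was -0.32 ± 0.20 (95% interval -0.83 to 0.19, limma adjusted p = 0.9999). The groups overlapped for both subunits of the enzyme that removes the ubiquitin. USP1, its catalytic subunit, stood at 28.0 and 30.7 FPKM in the formaldehyde libraries, against 38.9 and 27.4 FPKM in the untreated libraries, the single high value being untreated replicate 1. WDR48, the subunit that activates USP1, stood at 12.0 and 11.5 FPKM in the formaldehyde libraries, against 15.1 and 8.61 FPKM in the untreated libraries. Both formaldehyde libraries of WDR48 lay between the untreated ones. The log2 fold changes were -0.15 ± 0.24 for USP1 and 0.04 ± 0.30 for WDR48 (SE, limma adjusted p = 0.9999 for each).

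The core complex held the member with the highest fold change, FANCE, and 7 of its 9 genes, counting the E2 enzyme, were lower with formaldehyde. FANCE, the subunit that contacts FANCD2 (chromosome 6, 35420138 to 35434881), stood at 9.54 and 9.94 FPKM in the formaldehyde libraries, against 7.62 and 7.66 FPKM in the untreated libraries. It was the only member with both formaldehyde libraries above both untreated ones, and the gap between the groups was wider than the distance within either. Its means were 9.74 ± 0.285 FPKM with formaldehyde and 7.64 ± 0.0254 FPKM untreated (SD, n = 2 each), a log2 fold change of 0.31 ± 0.19 (95% interval -0.17 to 0.80, limma unadjusted p = 0.156, adjusted p = 0.9999). FANCA, a large subunit that binds FANCG (chromosome 16, 89803959 to 89883065), stood at 12.4 and 13.2 FPKM in the formaldehyde libraries, against 13.8 and 17.9 FPKM in the untreated libraries. The groups did not overlap, although untreated replicate 1 lay nearer to the formaldehyde libraries than to untreated replicate 2. Its log2 fold change, -0.27 ± 0.22 (SE), had an adjusted p of 0.9999 by limma. Over 1328 nt its exons overlap those of ZNF276 on the other strand, so that reads of the 2 genes cannot be told apart without a stated strand setting.

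FANCL, the subunit with ligase activity, stood at 15.7 and 10.6 FPKM with formaldehyde, against 19.1 and 12.1 FPKM untreated. The libraries of each group were far apart, and the spread within the groups exceeded the difference between them. UBE2T, the E2 enzyme that works with FANCL, had the highest mean of the members in each group, at 76.9 and 58.3 FPKM with formaldehyde, against 91.0 and 56.3 FPKM untreated. In replicate 2 of each group ERCC1 was higher. UBE2T showed the same arrangement as FANCL, with replicate 1 above replicate 2 in each group. FANCB, which binds FANCL, stood at 5.03 and 3.79 FPKM with formaldehyde, against 6.26 and 4.53 FPKM untreated, again with overlapping groups. FANCG, a scaffold for FANCA, was the second most abundant of the complex, at 35.9 and 41.3 FPKM with formaldehyde, against 39.4 and 44.4 FPKM untreated. Its 4 values lay close together and overlapped. FANCC, which pairs with FANCE, stood at 6.10 and 6.14 FPKM with formaldehyde, against 7.41 and 5.68 FPKM untreated. FANCF, an adaptor, stood at 1.52 and 1.52 FPKM with formaldehyde, against 1.57 and 1.24 FPKM untreated, from 71 to 112 fragments a library, and was the least deeply counted member with a counting error of 18.9% to 23.7%. FANCM, the DNA translocase that anchors the complex, stood at 1.58 and 1.29 FPKM with formaldehyde, against 1.89 and 1.27 FPKM untreated. The formaldehyde values of FANCC and FANCF lay between the untreated ones, as did those of FANCM. Over these 7 genes the log2 fold changes ran from -0.24 for FANCB to 0.07 for FANCF (limma adjusted p = 0.9999 for each).

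The members whose groups did not overlap are the ones whose promoters are shown, where RefSeq gives an entry (GRCh38.p14, from upstream of the transcript start to just after it, 5′ to 3′ on the strand of the gene). Of the 32 members, 31 had an entry, FANCI being the other. Short motifs known from cell cycle genes were searched on both strands and are in capitals: the E2F letters TTTGGCGC, TTTCCCGC, TTTCGCGC or TTTGCCGC, the CHR letters TTTGAA, and the CCAAT box. None of these letters overlap each other in the windows shown.
FANCD2 (chr3:10026187-10026486, plus strand): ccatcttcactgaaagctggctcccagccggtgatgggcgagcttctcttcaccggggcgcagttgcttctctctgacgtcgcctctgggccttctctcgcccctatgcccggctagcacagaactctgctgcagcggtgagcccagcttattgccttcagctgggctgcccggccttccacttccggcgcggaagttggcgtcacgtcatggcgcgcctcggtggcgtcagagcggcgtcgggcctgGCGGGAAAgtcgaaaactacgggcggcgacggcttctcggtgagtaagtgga
BRIP1 (chr17:61863479-61863778, minus strand): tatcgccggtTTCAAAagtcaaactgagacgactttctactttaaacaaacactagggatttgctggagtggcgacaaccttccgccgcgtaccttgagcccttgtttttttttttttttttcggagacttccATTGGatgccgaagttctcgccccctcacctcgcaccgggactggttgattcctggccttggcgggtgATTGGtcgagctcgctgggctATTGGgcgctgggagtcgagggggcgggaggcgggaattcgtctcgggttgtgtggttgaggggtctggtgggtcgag
FANCA (chr16:89816598-89816897, minus strand): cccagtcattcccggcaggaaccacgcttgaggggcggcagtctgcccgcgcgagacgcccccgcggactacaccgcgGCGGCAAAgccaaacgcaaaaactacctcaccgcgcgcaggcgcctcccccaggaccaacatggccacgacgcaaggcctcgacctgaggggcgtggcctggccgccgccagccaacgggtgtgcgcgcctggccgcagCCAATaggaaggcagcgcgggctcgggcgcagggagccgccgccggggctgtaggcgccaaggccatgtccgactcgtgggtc
FANCE (chr6:35452088-35452387, plus strand): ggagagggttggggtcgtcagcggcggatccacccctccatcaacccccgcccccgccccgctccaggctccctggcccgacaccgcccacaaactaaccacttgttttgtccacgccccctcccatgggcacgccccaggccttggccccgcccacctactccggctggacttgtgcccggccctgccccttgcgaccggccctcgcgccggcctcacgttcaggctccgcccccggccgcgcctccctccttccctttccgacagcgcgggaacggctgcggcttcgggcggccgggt
FANCD2 holds the E2F letters across its start site, FANCA holds 1 E2F match and 1 CCAAT box, BRIP1 holds 1 CHR match and 3 CCAAT boxes, and FANCE holds none of the letters searched. E2F letters were found in 5 of the 31 members with an entry (16.1%), FANCA, FANCC, FANCD2, REV3L and XRCC2, beside 6.9% of 8841 tested genes with an entry. CHR letters were found in 5 members (16.1%), beside 13.1% of the tested genes, and a CCAAT box in 13 members (41.9%), beside 43.4%. Some genes have several start sites. Counted by promoter, 12.2% of the 41 promoters of members held E2F letters, beside 3.31% of all 35116 promoters in the table. By the same count 12.2% held CHR letters, beside 15.2%, and 34.1% a CCAAT box, beside 34.6%. The 5 members with E2F letters had a median log2 fold change of -0.16 and all 5 were lower. The other 26 had a median of -0.05 and 15 were lower. With CHR letters the median was -0.10 (4 of 5 lower), and without them -0.08 (16 of 26 lower). With a CCAAT box it was -0.07 (9 of 13 lower), and without it -0.09 (11 of 18 lower). No such median was taken over all tested genes. Of the 5 members with E2F letters, FANCC, REV3L and XRCC2 overlapped between the groups and changed sign without at least 1 library. FANCA and FANCD2 kept their sign. These counts describe letters in a window of this length, with no test.

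The nucleases and their scaffold divided into 4 genes that were higher and 3 that were lower with formaldehyde, and none separated the groups. SLX4, the scaffold that holds the nucleases, stood at 2.66 and 4.17 FPKM in the formaldehyde libraries, against 3.65 and 5.43 FPKM in the untreated libraries. Each group had a low and a high library, and the ranges overlapped. EME1, the partner subunit of MUS81, stood at 11.1 and 16.4 FPKM in the formaldehyde libraries, against 15 and 20.1 FPKM in the untreated libraries, with the same order of libraries. Their log2 fold changes were -0.33 ± 0.30 for SLX4 and -0.34 ± 0.28 for EME1 (SE, limma adjusted p = 0.9999 for each), and both stayed lower without each library in turn. MUS81, the catalytic subunit of that nuclease, stood at 21.99 and 22.8 FPKM with formaldehyde, against 18.6 and 22.7 FPKM untreated, where both formaldehyde values lay at the level of untreated replicate 2. ERCC4, the catalytic subunit of the XPF nuclease, stood at 2.41 and 1.96 FPKM with formaldehyde, against 2.22 and 1.77 FPKM untreated. ERCC1, its partner, stood at 62.2 and 71.6 FPKM with formaldehyde, against 60.6 and 62.4 FPKM untreated. ERCC4 was thus near 2 FPKM where ERCC1 was above 60 FPKM in every library, on a scale that allows for length. Exons of ERCC1 share 1593 nt with CD3EAP on the other strand, which was at 7.17 and 5.69 FPKM with formaldehyde, against 3.75 and 3.07 FPKM untreated. DCLRE1A, the exonuclease SNM1A that digests past a crosslink, stood at 2.72 and 2.65 FPKM with formaldehyde, against 3.07 and 1.98 FPKM untreated. DCLRE1B, the related nuclease Apollo, stood at 7.53 and 8.64 FPKM with formaldehyde, against 8.72 and 7.61 FPKM untreated. The formaldehyde values of DCLRE1A lay between the untreated ones, and those of DCLRE1B spanned nearly the same range. The log2 fold changes of these 5 genes ran from -0.01 for DCLRE1B to 0.12 for MUS81 (limma adjusted p = 0.9999 for each).

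Among the 7 recombination genes, 5 were lower with formaldehyde and BRIP1 alone separated the groups. BRIP1, the helicase also known as FANCJ (chromosome 17, 59756547 to 59940920), stood at 6.11 and 6.54 FPKM in the formaldehyde libraries, against 8.96 and 7.32 FPKM in the untreated libraries. The groups did not overlap, by a gap smaller than the distance between the untreated libraries. Its means were 6.32 ± 0.306 FPKM with formaldehyde and 8.14 ± 1.16 FPKM untreated (SD, n = 2 each), a log2 fold change of -0.31 ± 0.21 (95% interval -0.85 to 0.22, limma unadjusted p = 0.192, adjusted p = 0.9999). BRCA1, which directs end resection and recombination, stood at 14.8 and 21.5 FPKM in the formaldehyde libraries, against 22.4 and 20.4 FPKM in the untreated libraries. Only formaldehyde replicate 1 was low, and without it the log2 fold change was 0.0054, against -0.25 ± 0.25 with all libraries. BRCA2, a mediator of homologous recombination, stood at 1.91 and 1.77 FPKM with formaldehyde, against 2.48 and 1.64 FPKM untreated. PALB2, which links BRCA1 to BRCA2, stood at 7.15 and 8.54 FPKM with formaldehyde, against 8.11 and 7.26 FPKM untreated. The groups overlapped for both genes. RAD51C, a homologous recombination protein, was the most abundant of the step, at 50.6 and 37.2 FPKM with formaldehyde, against 48.6 and 35.7 FPKM untreated. XRCC2 and XRCC3, which act in the same process, showed the reverse order of libraries. XRCC2 stood at 8.51 and 10.6 FPKM with formaldehyde, against 9.51 and 11.6 FPKM untreated. XRCC3 stood at 12.2 and 16.2 FPKM with formaldehyde, against 13.2 and 18.7 FPKM untreated. For RAD51C replicate 1 was the higher library of each group and for XRCC2 and XRCC3 replicate 2 was, so that the distance within the groups exceeded the distance between them. The log2 fold changes of the 6 genes other than BRIP1 ran from -0.25 for BRCA1 to 0.06 for RAD51C (limma adjusted p = 0.9999 for each).

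The translesion synthesis and checkpoint genes showed no separation between the groups. RAD18, the ligase that marks PCNA for polymerase exchange, stood at 11.3 and 7.95 FPKM with formaldehyde, against 10.9 and 6.79 FPKM untreated. REV1, a scaffold polymerase that inserts cytosine opposite lesions, stood at 9.07 and 8.01 FPKM with formaldehyde, against 9.60 and 8.56 FPKM untreated. REV3L, the catalytic subunit of polymerase zeta, stood at 4.09 and 3.76 FPKM with formaldehyde, against 5.46 and 3.68 FPKM untreated. All of these overlapped, and in each the highest library was a replicate 1. ATR, the kinase of stalled forks, stood at 7.75 and 5.72 FPKM with formaldehyde, against 7.66 and 4.41 FPKM untreated, and ATRIP, its binding partner, at 7.01 and 5.35 FPKM with formaldehyde, against 6.45 and 6.03 FPKM untreated. The log2 fold changes of the 5 genes ran from -0.16 ± 0.25 for REV3L to 0.16 ± 0.31 for ATR (SE, limma adjusted p = 0.9999 for each). Without untreated replicate 1 that of ATR was 0.50, and without untreated replicate 2 it was -0.18.

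**Figure D2:**
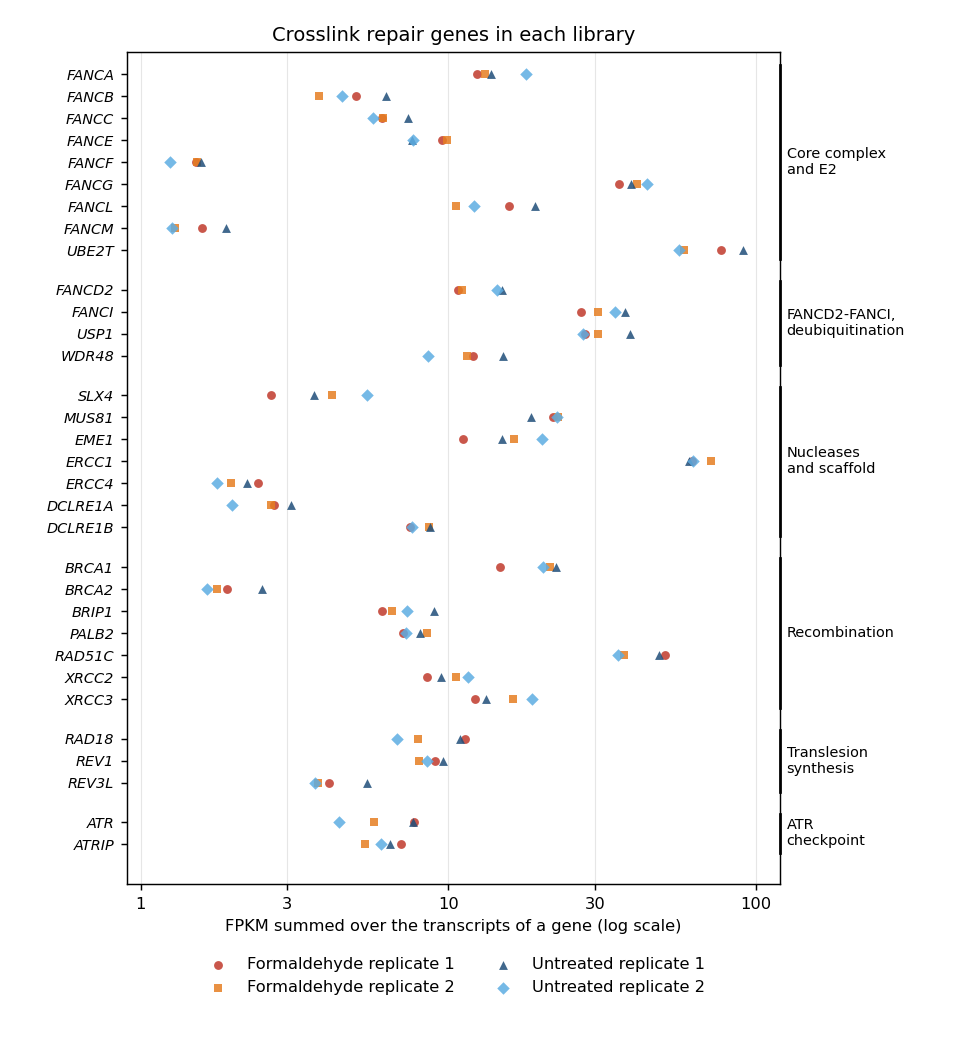
FPKM of the 32 members in each of the 4 libraries on a log axis, grouped by repair step. UBE2T (56.3 to 91.0 FPKM) and ERCC1 (60.6 to 71.6 FPKM) are the most abundant, and FANCF, FANCM, BRCA2 and ERCC4 stay under 3 FPKM. Formaldehyde symbols lie left of both untreated symbols for FANCD2, FANCI, FANCA and BRIP1 and right of both for FANCE.

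Medians by step lay close together, and their order changed with the library left out. With all libraries, the median log2 fold change was -0.24 over the 4 genes of the FANCD2-FANCI step, -0.13 over the 7 recombination genes, -0.10 over the 9 core complex genes, -0.08 over the 3 translesion synthesis genes, 0.07 over ATR and ATRIP, and 0.08 over the 7 nuclease genes. Relative to the untreated mean of each gene, the FANCD2-FANCI step stood at -0.31 and -0.16 in the formaldehyde libraries, against 0.15 and -0.15 in the untreated libraries. Formaldehyde replicate 2 was thus close to untreated replicate 2. The recombination genes stood at -0.28 and 0.01 in the formaldehyde libraries, against 0.07 and -0.07 in the untreated libraries, so that formaldehyde replicate 1 alone was low. Over the libraries left out in turn, the FANCD2-FANCI median ran from -0.39 to -0.086, nearest 0 without untreated replicate 1. The recombination median ran from -0.28 to 0.0054, the last without formaldehyde replicate 1. In the core complex the medians were 0.01 and -0.16 in the formaldehyde libraries and 0.17 and -0.17 in the untreated libraries, which overlap. The nuclease medians lay between -0.02 and 0.07 in all 4 libraries. The ATR and ATRIP median was 0.25 and -0.11 in the formaldehyde libraries, against 0.19 and -0.19 in the untreated libraries. No step was tested as a list.

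**Figure D3:**
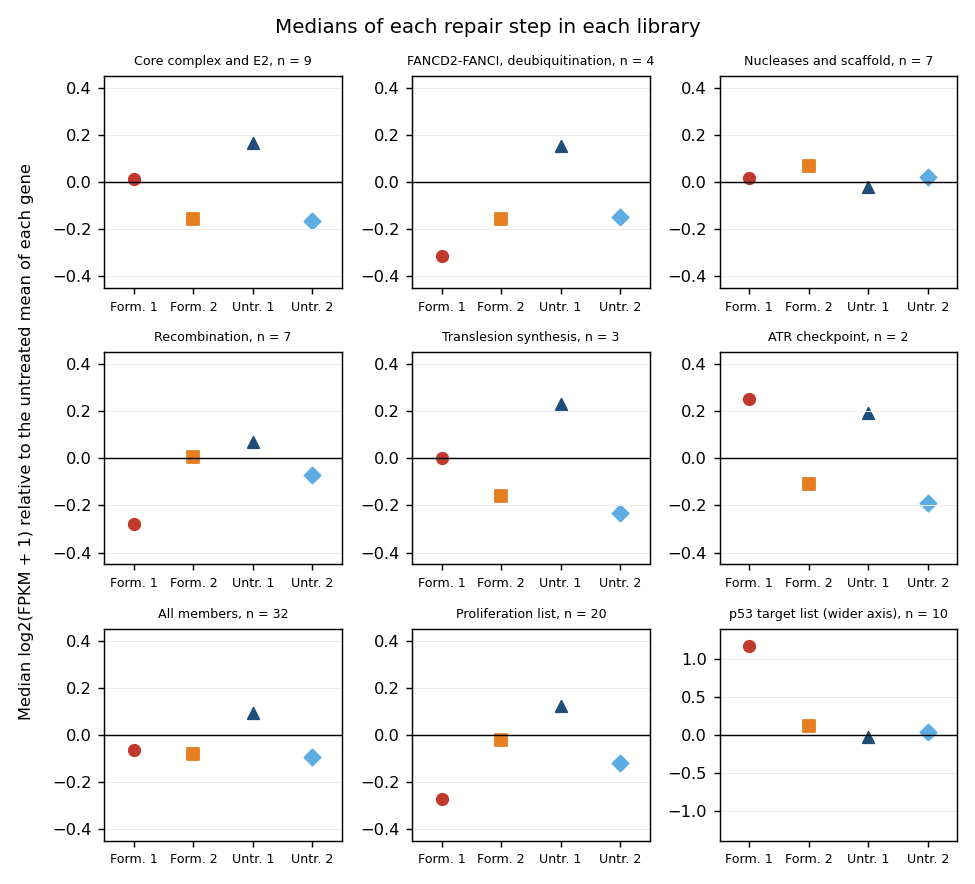
Median log2(FPKM + 1) of each repair step in each library, relative to the untreated mean of each gene, with the median of all members, a proliferation list and a p53 target list for comparison. The FANCD2-FANCI median is lowest in formaldehyde replicate 1 (-0.31), and untreated replicate 2 (-0.15) lies at the level of formaldehyde replicate 2 (-0.16). The p53 panel has a wider axis, and its formaldehyde replicate 1 stands at 1.17.

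Other genes of crosslink repair outside the 32 members are given beside them. Of 49 such genes found, 48 reached the filter and 0 passed the test in either direction, with 0 at an unadjusted p under 0.05 (limma). Of the 48, 34 were lower and 14 higher; the median fold change on the log2 scale was -0.05, within a range from -0.35 to 0.22. Without overlap, 5 were lower (10.4%) and 3 higher (6.25%), beside 10.7% and 16.2% of all genes. CHEK2, a checkpoint kinase, stood at 7.85 and 10.3 FPKM with formaldehyde, against 12.5 and 11.1 FPKM untreated. EXO1, the exonuclease of end resection, stood at 9.85 and 12.7 FPKM with formaldehyde, against 15.3 and 13.5 FPKM untreated. In both genes formaldehyde replicate 1 was the lowest library. BLM, the helicase that dissolves recombination intermediates, stood at 6.19 and 7.88 FPKM with formaldehyde, against 9.21 and 7.89 FPKM untreated. POLI, a translesion polymerase, stood at 1.43 and 1.38 FPKM with formaldehyde, against 1.95 and 1.61 FPKM untreated. C19orf40, the core complex partner FAAP24, stood at 5.12 and 4.89 FPKM with formaldehyde, against 5.88 and 5.50 FPKM untreated. On the other side lay RAD51D, TIPIN and TOP3A. RAD51D, a homologous recombination protein, stood at 8.80 and 9.27 FPKM with formaldehyde, against 7.74 and 7.44 FPKM untreated. TIPIN, a fork protection protein, stood at 16.3 and 15.3 FPKM with formaldehyde, against 14.7 and 13.1 FPKM untreated, and TOP3A, the topoisomerase that works with BLM, at 22.3 and 23.1 FPKM with formaldehyde, against 21.1 and 20.5 FPKM untreated. These 8 genes are those of the list whose groups did not overlap (limma adjusted p = 0.9999 for each).

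Proliferation genes and p53 targets are given for the same libraries. Over the 20 genes of a proliferation list the median was -0.19 on the log2 scale, with 17 lower and 4 below without overlap (20% beside 10.7% of all genes), and 0 passed the test or had an unadjusted p under 0.05 (limma). By library they stood at -0.27 and -0.02 with formaldehyde, against 0.12 and -0.12 in the untreated libraries, and their summed level was 1143 and 1337 FPKM with formaldehyde, against 1525 and 1257 FPKM untreated. The members summed to 493.5 and 491.4 FPKM with formaldehyde, against 560.0 and 490.4 FPKM untreated, the single higher sum again being untreated replicate 1. MKI67, the Ki-67 proliferation marker, stood at 31.2 and 41.1 FPKM with formaldehyde, against 53.3 and 52.0 FPKM untreated. The 10 p53 targets had a median of 0.68 on the log2 scale, which rested on formaldehyde replicate 1: by library the medians were 1.17 and 0.12 with formaldehyde, against -0.03 and 0.03 untreated. Of the 10, 4 were above without overlap (40% beside 16.2% of all genes), 0 passed the test and 1 had an unadjusted p under 0.05 (limma). Their sum was 559.5 and 134 FPKM with formaldehyde, against 102 and 123 FPKM untreated, so that formaldehyde replicate 1 stood apart. Without that library the median of the repair genes was -0.08 and 21 of 32 were lower. The count was the same with all libraries, but 8 members changed sign, so the 21 genes were not the same ones. The part of cell cycle activity in the values of the repair genes was not tested. The 7 nuclear RNAs found of a short list summed to 594 and 379 FPKM with formaldehyde, against 281.5 and 711 FPKM untreated, and their part was not tested either.

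The distance between libraries of a group varied with the base composition of the transcripts. Across the 32 members, the difference between untreated replicate 1 and untreated replicate 2 on the log2 scale had a Pearson's r of -0.74 and a Spearman's rho of -0.74 with the GC content of the transcripts. Between formaldehyde replicate 1 and replicate 2 the values were -0.43 and -0.49. FANCL, with 39.3% GC, was higher in replicate 1 of each group, where the difference was 0.53 between the formaldehyde libraries and 0.62 between the untreated libraries. XRCC3, with 62.8% GC, was lower there, at -0.38 and -0.47, and so was SLX4, with 57.6% GC, at -0.50 and -0.47. BRCA1, with 43.0% GC, ran the other way between the groups, at -0.51 and 0.13. Some members went against the pattern. ATRIP, with 57.1% GC, was higher in replicate 1 of each group, at 0.33 and 0.08. XRCC2, with 42.55% GC, was lower in replicate 1 of each group, at -0.29 and -0.27. Over 11985 genes the correlation with GC content was weaker, with r of -0.12 and rho of -0.25 between the formaldehyde libraries and r of -0.33 and rho of -0.56 between the untreated libraries. The log2 fold change between the groups had an r of 0.12 and a rho of 0.04 with GC content over the members. These correlations run across genes of the same 4 libraries, which are not independent, and are given without a test. The part of base composition in the treatment comparison was not tested.

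**Figure D4:**
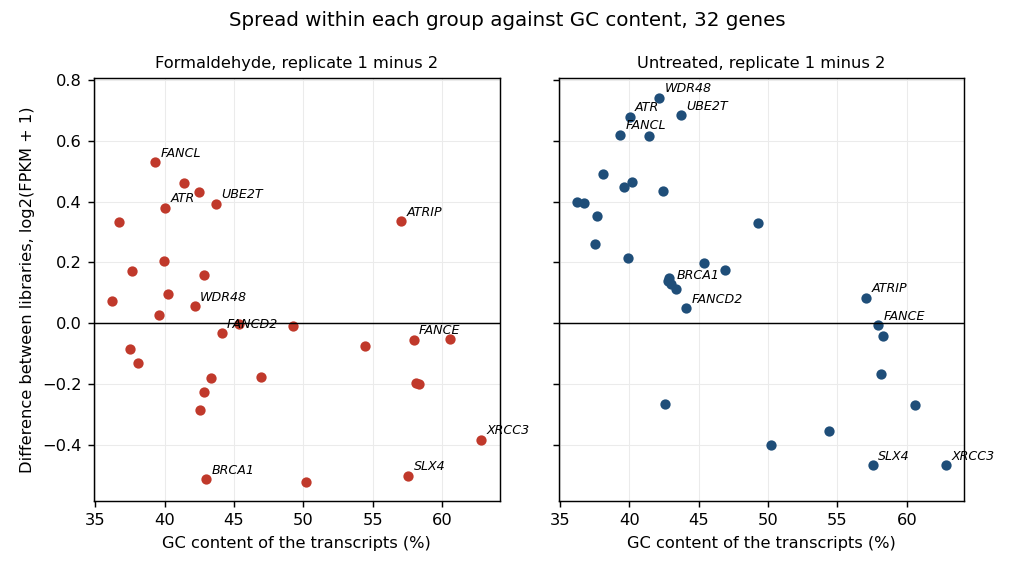
Difference between the 2 libraries of each group, replicate 1 minus replicate 2 on log2(FPKM + 1), against the GC content of the transcripts of each of the 32 members, formaldehyde on the left and untreated on the right. Values fall with GC content in both panels (r = -0.43 and -0.74), and FANCD2 and FANCE lie near 0 in both.

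Transcript estimates bear on a few members. FANCL has 2 listed transcripts, of 1717 and 1732 nt. The shorter was given 8.87 and 4.54 FPKM in the formaldehyde libraries, against 12.9 and 10.1 FPKM in the untreated libraries, without overlap. The longer was given 6.86 and 6.04 FPKM with formaldehyde, against 6.26 and 2.03 FPKM untreated. With the highest transcript in place of the sum, the log2 fold change of FANCL was -0.75 (limma unadjusted p = 0.0926, adjusted p = 0.9999). The sum gave -0.22 with overlapping groups. The value of -0.75 thus rests on how FPKM was split between 2 transcripts of nearly the same length. The 2 listed transcripts of REV1 are 4731 and 4734 nt long and nearly identical. The shorter was given 4.91 and 8.01 FPKM in the formaldehyde libraries, against 9.26 and 0.487 FPKM in the untreated libraries, and the longer 4.15 and 0.00274 FPKM, against 0.339 and 8.07 FPKM. The sum, which the results above use, was stable while the split between transcripts was not. ATRIP had its longer transcript at 64.3% and 99.8% of the gene in the formaldehyde libraries, against 57.0% and 77.4% in the untreated libraries. FANCD2 kept 95.1% to 97.0% of its FPKM in 1 transcript of 5102 nt, and FANCI kept all but a trace in 1 of 4749 nt, so that their values are nearly those of 1 transcript each. Exons also overlap a gene on the other strand over 452 nt in FANCL (VRK2), 431 nt in FANCI (POLG), 227 nt in EME1 (LRRC59), 119 nt in FANCD2 (FANCD2OS) and 3 nt in MUS81 (EFEMP2). LRRC59 was more abundant than EME1 in all 4 libraries. With the highest transcript of each gene in place of the sum, 5 members lay below and 3 above without overlap. Over the 12255 genes tested in that setting, 1316 lay below and 1953 above. Of the members 0 passed (limma).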

How the data were processed

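Total RNA of 4 BEAS-2B libraries was sequenced on an Illumina HiSeq, per the labels and design text. Cufflinks 2.0.2, STAR 2.5.2 and FastQC 0.10.0 are the tools in the submitters' processing notes, with hg19 (GRCh37) as build. The sources used here state neither the strand setting nor the treatment of multi-mapped reads. The deposited files give FPKM for 40255 transcripts a library, computed by the authors. The 894 transcripts without a gene name were left out, and FPKM were summed for 23004 gene names. Depth came from the ratio of deposited coverage to FPKM and a read length of 51 nt fitted from the deposited bounds. Fragments behind a value are FPKM times transcript length times depth. For members of 1 transcript the deposited bounds gave lower numbers. In formaldehyde replicate 1 these were 770 in place of 993 for UBE2T and 67 in place of 71 for FANCF. By those numbers the counting errors would be larger than printed.

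Genes with a mean of at least 1 FPKM (12407) entered limma 3.58.1 (R 4.3.3) as log2(FPKM + 1) values (mean trend, two-sided, Benjamini-Hochberg over all genes), without a covariate. This scale understates the change of low genes. The test was checked on simulated data with planted changes larger than those measured for any member. That check does not bear on differences of the members' size. GC content is the mean over the GENCODE 29 sequences that match a gene's RefSeq transcripts, found for all 32 members and 96.6% of the genes tested. Promoters are RefSeq's. The members and lists were chosen with earlier results of these data known. Every member was named, and of related repair genes the 8 that reached the filter and did not overlap, and of the proliferation, p53 and nuclear RNA lists at most 3 genes each. Cell type markers were named apart from this limit. Alternatives are given at the end. Tables were made with Python 3.11.15 and figures with matplotlib 3.10.9.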

Additional observations from a re-analysis of the deposited data

How the results depend on the processing

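No member tested passed the limma threshold under any of the 13 alternatives (24 of the 32 reached the filter of 5 FPKM), and the smallest unadjusted p of a member was 0.0531. FANCA, FANCG, FANCD2, FANCI, EME1 and BRIP1 were lower, and FANCE and ERCC1 higher, under all 13, and FANCB and SLX4 were lower under the others than the filter of 5 FPKM, which they did not reach. The other 22 changed sign without at least 1 library, with these ranges of log2 fold change over the libraries left out: FANCC -0.24 to 0.092, FANCF -0.030 to 0.17, FANCL -0.53 to 0.085, FANCM -0.25 to 0.10, UBE2T -0.44 to 0.25, USP1 -0.40 to 0.093, WDR48 -0.33 to 0.41, MUS81 -0.015 to 0.25, ERCC4 -0.017 to 0.20, DCLRE1A -0.14 to 0.30, DCLRE1B -0.10 to 0.075, BRCA1 -0.51 to 0.0054, BRCA2 -0.29 to 0.11, PALB2 -0.090 to 0.14, RAD51C -0.16 to 0.27, XRCC2 -0.28 to 0.0087, XRCC3 -0.38 to 0.084, RAD18 -0.19 to 0.43, REV1 -0.16 to 8.5e-06, REV3L -0.39 to 0.071, ATR -0.18 to 0.50, ATRIP -0.19 to 0.15. Scaling by median ratios turned WDR48 to -0.0017 and PALB2 to -0.014, an equal sum of FPKM turned them to -0.024 and -0.035 and RAD51C to -0.0086, and the highest transcript turned REV1 to 0.90 and ATRIP to 0.20. These scalings moved the median of all genes from 0.03 to -0.01 and -0.03. Over the libraries left out, the median of all members ran from -0.16 to 0.080, that of the core complex from -0.24 to 0.09 and that of the nucleases from -0.098 to 0.075. Members lying above and below without overlap then numbered 3 to 14 and 8 to 18, beside 3685 to 5835 and 2388 to 4307 of all 12407 genes. These counts are larger since fewer libraries need to separate. The nuclease median was 0.11 with a pseudocount of 0.1 and 0.034 with an equal sum of FPKM. With the highest transcript 3 members lay above, beside 1953 of 12255 genes. Over all genes, 10 passed as higher and 9 as lower. The counts were 0 and 0 without a filter, 1 and 0 with genes of at least 300 nt, and 3 to 44 and 10 to 49 over the libraries left out (44 and 34 higher without formaldehyde replicate 2 and 1, 3 and 6 without untreated replicate 2 and 1; 49 and 28 lower without untreated replicate 1 and 2); the cause was not tested. With the replicate number as a block, 14 genes passed as higher and 15 as lower, FANCD2 had an adjusted p of 0.677 (limma), and 0 members passed. The labels do not say what libraries of the same number share. Their deviations correlated with r = 0.25 and rho = 0.52 over all genes, and with r = 0.73 and rho = 0.73 over the members. Depth limits FANCF most, at 71 fragments in its shallowest library. A fit that leaves a group with 1 library assumes that it varies like the other group.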
